A study of Mus musculus with 6 samples.

Results

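The genes of calcitonin gene-related peptide (CGRP), of adrenomedullin and of the receptor that both peptides share were followed in cells from the mesenteric fat of obese mice. They are 7 of the 25777 genes and transcripts measured: the peptide genes Calca, Calcb and Adm, the receptor gene Calcrl and the receptor partner genes Ramp1, Ramp2 and Ramp3. Members were found by matching the accession of each non-control probe to these genes, which gave 10 probes, each spotted 1 time per array. The genes were selected on the measured differences of Calca and Calcb between these same arrays, and the other members were taken in as their family. The levels, differences and adjusted p-values of the members are therefore a description of these arrays, not independent tests.

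All mice were male and of the strain C57BL/6JHamSlc-ob/ob, which carries a leptin gene mutation and becomes obese. The propolis group had been injected intraperitoneally with an ethanol extract of Brazilian propolis, a resin that bees collect. Each dose was 100 mg/kg, given 2 times a week over 12 weeks. The vehicle group had received a fluid with a little DMSO and ethanol over the same 12 weeks. Age was not stated, and no lean or untreated mice were compared, so both groups share the ob/ob genotype and the injections. The stromal vascular fraction, the cells that collagenase frees from fat once adipocytes are spun off, was taken after lysis of red cells, and 3 samples per group were measured.

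CGRP is a vasodilator peptide released mainly by sensory nerve fibres. Calca, by alternative splicing, encodes both calcitonin and the alpha form of CGRP, while Calcb encodes the beta form, which is known from enteric neurons. Both peptides act on the receptor encoded by Calcrl, which reaches the cell surface only together with a receptor activity-modifying protein: with RAMP1 it binds CGRP, and with RAMP2 or RAMP3 it binds adrenomedullin. The receptor couples to Gs and raises cAMP. Adrenomedullin is made by endothelial and stromal cells, is induced by hypoxia and keeps blood and lymph vessels intact.

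Levels are log2 intensities relative to the 75th percentile of each array, so they compare arrays for 1 probe and not genes with each other. Every ± is an SD with n = 3 unless marked SE, and adjusted p-values are from limma over all genes. Between 59.9% and 65.6% of probes stood well above background on each array. Slide 2 held vehicle 3 and propolis 3, and slide 1 held the other 4 arrays. Defining genes of the labelled fraction were present on every array: Pdgfra, a receptor gene of fibroblasts and progenitors, lay between 3.63 and 4.16, and Ptprc, the pan-leukocyte gene, between 2.22 and 3.08. Vehicle 2 and vehicle 3 stood apart. The 6 measured pancreatic acinar genes averaged 4.64 in vehicle 2 against -3.32 to -2.47 elsewhere, and 6 intestinal epithelial genes averaged 5.42 in vehicle 3 against -1.50 to 0.77 elsewhere. The acinar and the intestinal list each had 6 of 6 means lower in propolis, and 0 genes of either passed, with 1 acinar and 0 intestinal genes at an unadjusted p under 0.05. These counts rested on 1 array each. Without vehicle 2 the acinar median went from -2.67 to -0.08, with 2 of 6 genes higher. Without vehicle 3 the intestinal median went from -1.87 to 0.595, with 4 of 6 genes higher.

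Of the 7 members, Calca and Calcb passed the threshold, both higher in propolis, and 0 fell. Of all genes 0.834% were called, 0.722% higher and 0.113% lower, and as the choice of members used this comparison nothing is read from the count. The groups did not overlap for Calca, Calcb and Ramp3, which were higher in every propolis array, and for Calcrl, which was lower in every one. Over all genes the shares without overlap were 10.8% higher and 6.62% lower. The median difference of the 7 members was -0.25, against -0.0041 over all genes. Its sign turned without vehicle 3 (0.0074), propolis 1 (0.017) or propolis 2 (0.0514), and with arrays weighted by their quality (0.0202).

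Calca was low in every vehicle array and high in every propolis array. Its brighter probe by the mean over all 6 arrays, A_52_P154101, read -4.71, -4.44 and -4.61 in vehicle 1, 2 and 3 and 1.06, 1.91 and 1.81 in propolis 1, 2 and 3. The means were -4.59 ± 0.14 and 1.59 ± 0.46, a 72.4-fold difference, with 5.50 log2 units between the highest vehicle and the lowest propolis array. Before scaling, this probe gave 21.1 to 25.4 intensity units in vehicle and 1520 to 1916 in propolis, and it stood well above background on all 6 arrays. The fit put the difference at 6.18 ± 0.27 (SE), with an adjusted p of 0.00554 from limma. It was 6.06 on slide 1, where alone it did not pass (adjusted p = 0.0588, 2 arrays against 2), and 6.42 on slide 2. Without vehicle 2 and vehicle 3, the arrays with pancreatic and intestinal RNA, the difference was 6.30 and no longer passed (limma adjusted p = 0.22, 1 array against 3). The call held whichever single array was left out, with adjusted p from 0.00611 to 0.0489. With another background correction the Calca difference was smaller, at 4.33, and passed (limma adjusted p = 0.00241). The size of the fold difference thus depends on how the dim vehicle readings are handled.

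The other Calca probe, A_55_P2139942, carries the name of another transcript of the gene and gave another order of the arrays. It read -4.44, -4.72 and -3.45 in the vehicle arrays and 2.11, -0.70 and -1.96 in propolis 1, 2 and 3. Its vehicle mean of -4.21 was above the -4.59 of the brighter probe, a choice that used the propolis arrays too. Propolis 1, the lowest propolis array by the brighter probe, was the highest by this one, at an intensity of 3141 against 315.8 in propolis 2 and 139 in propolis 3. The groups did not overlap, but the propolis SD was 2.08. The mean difference of 4.02, or 16.3-fold, had a limma adjusted p of 0.186 when each of 34782 probes was tested by itself. Its difference was 5.29 on slide 1 and 1.49 on slide 2. Calcitonin and CGRP messages share part of the gene, and which exons each probe reads was not examined here, so these arrays do not tell the messages apart.

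**Figure D1:**
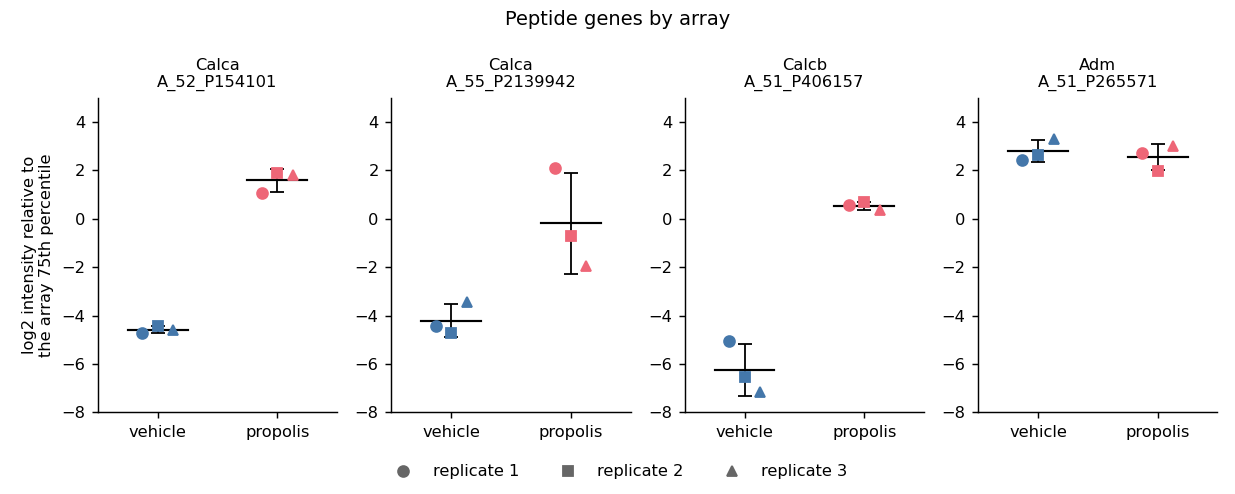
Log2 intensity relative to the array 75th percentile for each probe of Calca, Calcb and Adm, with a point per array (shape gives the replicate), a line at the group mean and an SD bar. Vehicle arrays lie from -4.71 to -4.44 and propolis arrays from 1.06 to 1.91 for A_52_P154101, propolis arrays spread from -1.96 to 2.11 for A_55_P2139942, and the groups overlap for Adm.

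Calcb stood above background in propolis and not in vehicle: it was well above it on 3 of 3 propolis arrays and 0 of 3 vehicle arrays. Its 1 probe, A_51_P406157, read -5.06, -6.56 and -7.15 in vehicle, where these values are background readings, and 0.56, 0.70 and 0.37 in propolis. The propolis arrays lay close together, at 0.54 ± 0.17. For a bound, each vehicle array was given the higher of its own Calcb reading, as in vehicle 1, and the lowest signal that counts as well above background on that array. Against the mean of these, and with the main background correction, Calcb was at least 56.2-fold higher in propolis (limma adjusted p = 0.00975). The fitted difference of 6.80 on which that p rests is uncertain, since the vehicle side has only a bound. With another background correction the difference was 3.32, below the 5.81 log2 units of that bound. The bound therefore holds for the main correction alone. On slide 1 alone the difference was 6.44 and did not pass (adjusted p = 0.0644). The call was lost without vehicle 2 (adjusted p = 0.0614, difference 6.65) or propolis 2 (adjusted p = 0.0638, difference 6.72), and without vehicle 2 and vehicle 3 together (adjusted p = 0.192, difference 5.61). The messages of Calca and Calcb resemble each other, and cross-hybridisation between the probes was not tested.

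Calca and Calcb are neighbours on chromosome 7, with 2 annotated pseudogenes and no measured gene between them. The genes on either side were added after the values were seen, 4 measured genes each way in RefSeq order. Insc, next to Calcb and known for orienting the spindle of dividing cells, read -3.80, -4.75 and -3.39 in vehicle and -0.37, 0.18 and -1.01 in propolis. Every propolis array was higher, and the difference of 3.58, or 11.9-fold, passed over all genes (limma adjusted p = 0.0307). That call did not hold when any single array was left out (adjusted p from 0.0574 to 0.114), with the replicate number as a block (adjusted p = 0.102) or without vehicle 2 and vehicle 3 (adjusted p = 0.434). The difference stayed between 3.19 and 3.88 with 1 array left out. On the Calca side, Cyp2r1, which encodes a vitamin D 25-hydroxylase, differed by -0.32 and Pde3b, a cAMP phosphodiesterase gene, by 0.47 (limma adjusted p = 0.727 and 0.45). Of the 8 neighbours, Insc alone passed, and the adjusted p of the other 7 ran from 0.326 to 0.995.

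**Figure D2:**
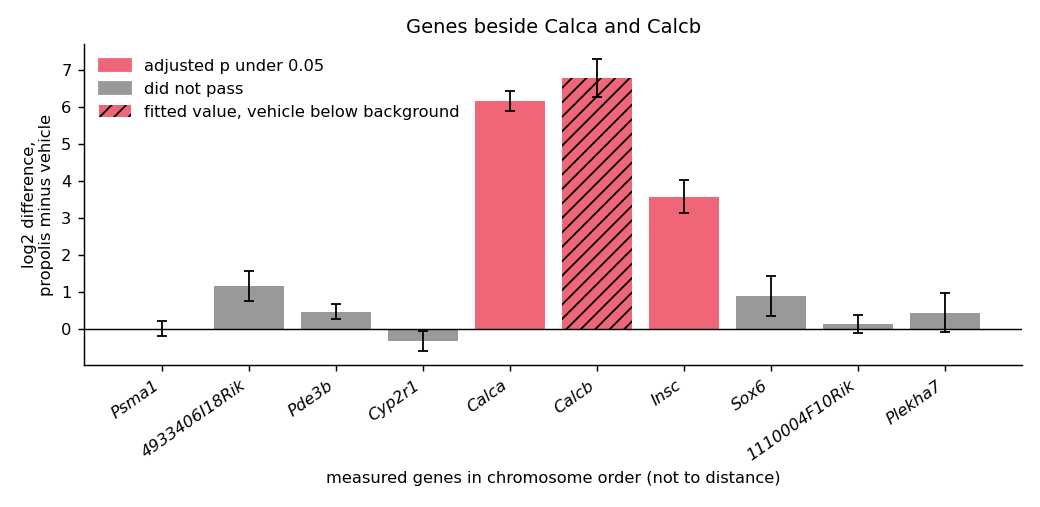
Log2 difference of propolis minus vehicle, with SE bars, for Calca, Calcb and 4 measured genes on each side in chromosome order (equal spacing, not distance). Red bars passed the threshold: Calca at 6.18, Calcb at 6.80, hatched because its vehicle arrays were below background, and Insc at 3.58, while Cyp2r1 lay at -0.32.

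Adm did not separate the groups. Its probe, A_51_P265571, read 2.43, 2.66 and 3.30 in vehicle and 2.71, 1.96 and 2.99 in propolis. Vehicle 3 was the highest array and propolis 2 the lowest, and the groups overlapped. The difference was -0.25 ± 0.35 (SE), with a limma adjusted p of 0.848, and its sign turned in 3 of 21 alternative settings.

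Calcrl, the shared receptor, was lower in every propolis array, by a small margin. It read -4.09, -4.03 and -3.98 in vehicle and -4.89, -5.17 and -4.22 in propolis, so the highest propolis array lay 0.13 below the lowest vehicle array. The vehicle arrays were tight, at -4.03 ± 0.06, and the propolis arrays were not, at -4.76 ± 0.49. The difference of -0.73 ± 0.27 (SE), or 1.66-fold, did not pass (limma adjusted p = 0.371). It was -0.97 on slide 1 and -0.24 on slide 2. The probe was dim, at 14.2 to 39.3 intensity units, though well above background on all 6 arrays, and another background correction gave -0.25.

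Ramp1, the partner that makes the CGRP receptor, was read by 3 probes that disagreed. The brightest, A_51_P348665, read 0.64, 0.82 and 1.34 in vehicle and -0.63, 0.95 and 0.95 in propolis, so that propolis 1 alone fell outside the vehicle range. Without propolis 1 the difference went from -0.51 to 0.02. A_52_P172014 also had its lowest value in propolis 1, at -5.61 against -4.77 and -3.88 in propolis 2 and 3 and -4.42 to -4.00 in vehicle. A_55_P1982996 went the other way, at -0.73, -1.11 and -1.38 in vehicle and -0.86, 0.07 and -0.82 in propolis, a difference of 0.53. The groups overlapped by all 3 probes, and tested singly their limma adjusted p ran from 0.631 to 0.762.

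Ramp2 and Ramp3, the partners of the adrenomedullin receptors, had differences of opposite sign. Ramp2 read 4.74, 4.52 and 5.07 in vehicle and 4.41, 4.09 and 4.72 in propolis, with overlapping groups and a difference of -0.37 ± 0.24 (SE) that did not pass (limma adjusted p = 0.649). Ramp3 read 0.07, 0.28 and -0.13 in vehicle and 0.85, 0.72 and 0.38 in propolis. Every propolis array of Ramp3 was higher, by at least 0.10, but the difference of 0.58 ± 0.21 (SE), or 1.49-fold, did not pass either (limma adjusted p = 0.351). It was 0.61 on slide 1 and 0.51 on slide 2. The level of Ramp3 minus that of Ramp2, taken within each array, was higher in propolis by 0.95, and by this measure the groups overlapped.

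**Figure D3:**
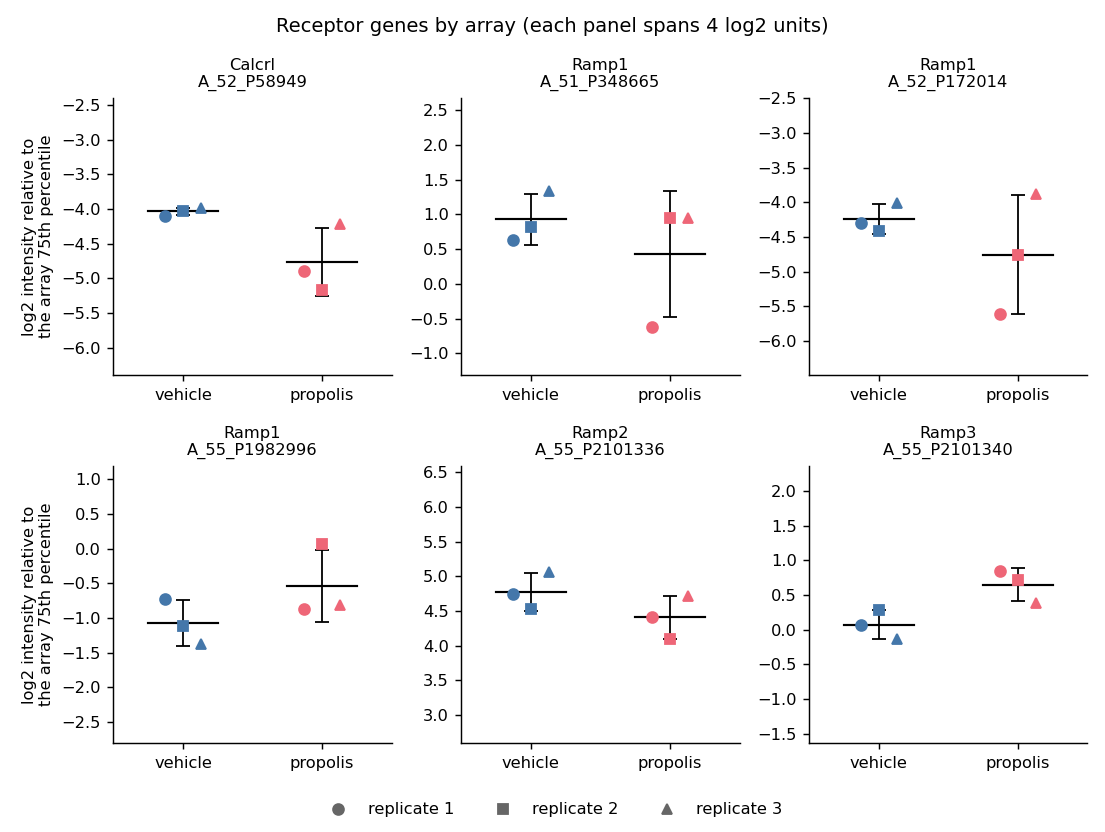
Log2 intensity relative to the array 75th percentile for the 6 probes of Calcrl, Ramp1, Ramp2 and Ramp3, with a point per array, a line at the group mean and an SD bar; every panel spans the same height around its own centre. Calcrl is lower and Ramp3 higher in all 3 propolis arrays, and propolis 1 lies apart for the Ramp1 probes A_51_P348665 and A_52_P172014.

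Upstream sequences are shown for Calca, which passed, and for 3 members that did not, to set the letters before their starts side by side. RefSeq, on GRCm38.p6, gave a window for 5 of the 7 members (Calca, Adm, Calcrl, Ramp1 and Ramp3). The 250 bases before the start are printed 5′ to 3′ on the strand of the gene. Capitals mark the core of a cAMP response element (TGACG, on the other strand read as CGTCA) or of a hypoxia response element. The latter was searched as ACGTG, whose complement is CACGT, and as GCGTG, whose complement is CACGC.
Calca, chr7:114636358-114636607, minus strand: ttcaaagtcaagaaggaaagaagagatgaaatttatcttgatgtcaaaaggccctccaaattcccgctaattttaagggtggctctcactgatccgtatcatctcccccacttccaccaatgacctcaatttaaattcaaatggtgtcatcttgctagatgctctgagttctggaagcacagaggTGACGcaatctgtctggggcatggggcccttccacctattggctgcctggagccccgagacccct
Adm, chr7:110627407-110627656, plus strand: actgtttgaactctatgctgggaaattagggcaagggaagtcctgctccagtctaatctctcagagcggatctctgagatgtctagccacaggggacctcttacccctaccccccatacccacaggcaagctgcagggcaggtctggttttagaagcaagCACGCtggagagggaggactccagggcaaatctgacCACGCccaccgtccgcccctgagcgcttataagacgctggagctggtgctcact
Calcrl, chr2:84425267-84425516, minus strand: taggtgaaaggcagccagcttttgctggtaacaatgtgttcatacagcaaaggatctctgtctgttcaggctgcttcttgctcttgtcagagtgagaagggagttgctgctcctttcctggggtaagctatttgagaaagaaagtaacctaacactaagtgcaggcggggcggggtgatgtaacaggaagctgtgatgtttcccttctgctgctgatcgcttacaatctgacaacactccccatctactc
Ramp3, chr11:6658283-6658532, plus strand: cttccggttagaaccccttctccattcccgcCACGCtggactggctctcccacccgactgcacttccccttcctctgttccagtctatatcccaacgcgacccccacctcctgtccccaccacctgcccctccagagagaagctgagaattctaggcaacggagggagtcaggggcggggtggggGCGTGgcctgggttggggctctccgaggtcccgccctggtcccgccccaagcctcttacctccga

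The Calca window held 1 cAMP response core, from base -65 to -61 before the start, and none of the others did. This core stood in 17.8% of the 32851 windows of this length, and the full element TGACGTCA, which none of the 5 windows held, in 1.55%. Adm and Ramp3 each held 2 copies of GCGTG or its complement, which 28.2% of all windows contain, and ACGTG, in 16.6% of windows, was in none of the 5. The Calcrl and Ramp1 windows held neither kind. A match is a description of the sequence, not evidence that a factor bound there.

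Among 49 other genes of the pathway, none passed the threshold. Of these, 43 were measured, 21 with higher and 22 with lower means in propolis, and 0 passed in limma, 7 having an unadjusted p under 0.05 (5 higher, 2 lower), as 11.7% of all genes did. With arrays weighted by their quality limma called 5, Ackr3, Adcy5, Bnip3, Gpr182 and Pde3b, but that setting called 3231 of all genes in place of 215. The other calcitonin family list had 3 of 6 genes measured, 1 higher and 2 lower, with a median of -0.62. Ackr3, an atypical receptor gene whose product takes up adrenomedullin, read 4.77, 4.87 and 4.44 in vehicle and 3.96, 4.08 and 4.17 in propolis. It was lower in every propolis array, by -0.62, without passing (limma adjusted p = 0.253). Gpr182, another atypical receptor gene of endothelium, differed by -0.74 with overlapping groups (limma adjusted p = 0.569). The intermedin gene Adm2 and the calcitonin receptor gene Calcr were not well above background on any array, and the amylin gene Iapp on 2, vehicle 2 and vehicle 3.

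The 7 genes of peptide processing and clearance had 2 higher and 5 lower means and a median of -0.41. The count was 3 higher and 4 lower without propolis 1, or without vehicle 2 and vehicle 3, and 1 higher and 6 lower without vehicle 1. In vehicle 3, the array with intestinal RNA, the peptidase gene Mme read -1.13, against -4.94 and -5.45 in vehicle 1 and 2. Cpe, a carboxypeptidase gene of prohormone processing, differed by -0.41 (limma adjusted p = 0.549). Gs and cAMP signalling genes were split, 6 higher and 11 lower of 17, with a median of -0.06. Adcy5, an adenylyl cyclase gene, went from -0.61 ± 0.19 to 0.14 ± 0.01 and the phosphodiesterase gene Pde4d from -2.50 ± 0.19 to -1.77 ± 0.15, both without overlap and without passing (limma adjusted p = 0.145 and 0.183).

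Genes that cAMP induces had a median of 0.26, with 8 of 8 means higher in propolis. With arrays scaled on the probes detected everywhere 6 of 8 were higher, with weighted arrays 2 of 8, and without propolis 3, or without vehicle 2 and vehicle 3, the count was 3 of 8. Per1, a clock gene that cAMP induces, was highest in vehicle 1 among the vehicle arrays and still lower there than in any propolis array (3.50 to 3.97), a difference of 1.12 that did not pass (limma adjusted p = 0.214), and Crem, encoding a cAMP-inducible repressor, differed by 0.46 (limma adjusted p = 0.524). Hypoxia targets, the class to which Adm belongs, were balanced, with 4 higher and 4 lower of 8 and a median of 0.09. Bnip3, a mitophagy gene, differed by 0.55 with every propolis array higher (limma adjusted p = 0.281), and Ddit4, a stress-induced inhibitor of mTOR, by 0.71 (limma adjusted p = 0.435).

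**Figure D4:**
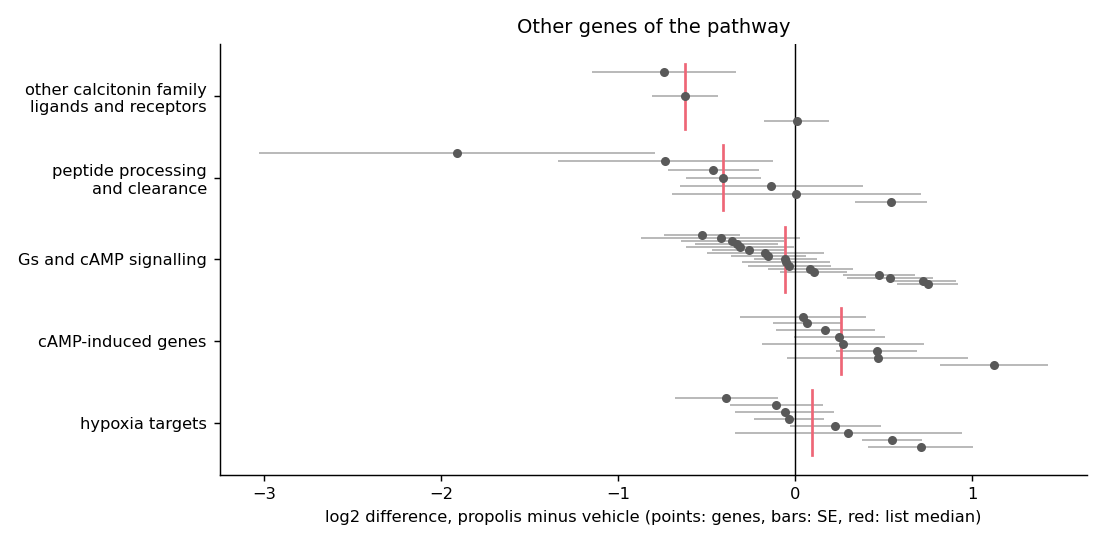
Log2 difference of propolis minus vehicle for 43 other pathway genes in 5 lists, with a point per gene, SE bars and a red line at the median of each list. Points lie on both sides of 0 in 4 of the lists, the medians run from -0.62 to 0.26, and none of the genes passed.

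Blood endothelium, where Calcrl, Ramp2 and Adm are typically active, had lower marker means in propolis, none of which passed. This held for 10 of 10 markers, with a median of -0.80, and 0 passed in limma, 2 having an unadjusted p under 0.05 (6 called with weighted arrays). The median was -0.42 without propolis 2, with the 10 means still lower. The list averaged 2.55 to 3.17 in vehicle and 1.60 to 2.73 in propolis, and propolis 2, the lowest, was also the array with the lowest Calcrl, Ramp2 and Adm. Pecam1, Cdh5 and Kdr differed by -0.80, -0.80 and -0.37. Lymphatic endothelial genes had a median of -0.50, with 2 higher and 3 lower of 5, and mural cell genes 0.23, with 5 higher and 4 lower of 9. With 1 array left out the lymphatic median ran from -0.78 (propolis 1) to -0.17 (propolis 2), and the mural one lay between 0.07 and 0.20 except without propolis 3, where it was -0.19. Limma called 0 of either, with 1 and 2 at an unadjusted p under 0.05. In RNA from mixed cells, fewer cells of a type and less RNA per cell cannot be told apart, and the part of the endothelial markers in the Calcrl and Ramp2 values was not tested.

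Markers of mesothelium, the lining of the peritoneum, had higher means in propolis, as Calca and Calcb did. This held for 8 of 8 genes, with a median of 1.81, and 2 passed. It held for 7 of 8 with weighted arrays or without vehicle 1, vehicle 2 or propolis 3, and the median was 0.96 without vehicle 2 and vehicle 3. Bnc1 and Wt1, transcription factor genes of these cells, rose by 2.87 and 1.98 (limma adjusted p = 0.0299 and 0.032). With 1 array left out, when fewer genes pass overall (11 to 94), Bnc1 passed without vehicle 1 alone and Wt1 in none of the 6 settings, while the differences stayed at 2.64 to 3.18 and 1.76 to 2.16. The list averaged -0.17 to 1.14 in vehicle and 1.71 to 2.64 in propolis, without overlap. Msln, Upk3b and Upk1b differed by 1.91, 1.14 and 2.31 without passing. The part of these cells in the Calca and Calcb values was not tested.

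Sensory neurons, the classical source of CGRP, had markers of both signs. Of 7 measured genes 4 were higher and 3 lower, with a median of 0.55 that became -0.01 under another background correction, -0.06 without propolis 2 and 0.94 without propolis 1, and list means of -3.85 to -3.26 in vehicle and -4.09 to -2.68 in propolis, and 0 passed in limma, 1 having an unadjusted p under 0.05. The capsaicin receptor gene Trpv1 differed by -0.43 and the substance P gene Tac1, picked here after its values were seen, by -1.39. The itch and pain receptor gene Mrgprd was not well above background on any array. The sodium channel gene Scn10a, at 0.57, spread from -7.65 to -3.70 over the arrays. Markers of neurons in general and enteric neurons had 4 higher and 4 lower of 8, with a median of -0.18 that turned to 0.12 without vehicle 1 and 0.20 without propolis 3. The neuronal tubulin gene Tubb3 differed by 1.31 and Stmn2, a gene of growing axons, by 1.42, both higher in every propolis array, and Ret, a receptor gene of enteric neurons, by -0.85, lower in every one. None of the 3 passed (limma adjusted p = 0.427, 0.346 and 0.169), and Stmn2 and Ret were picked after their values were seen. Nefl, Nefm and Nos1 were not well above background on any array. Glial genes had 1 higher and 4 lower of 5 (median -0.09), or 3 higher and 2 lower with quantile normalization, and medians of -0.28 to -0.02 with 1 array left out (propolis 3, vehicle 1). Limma called 0 neuronal and 0 glial genes, with 3 and 1 at an unadjusted p under 0.05. Of 8 neuroendocrine genes 4 were higher and 4 lower, with a median of 0.0021. With 1 array left out the median was below 0 each time, from -0.41 (vehicle 1) to -0.03 (vehicle 2). With arrays scaled on the probes detected everywhere 2 were higher and 6 lower. The neuroendocrine list means did not overlap, at -1.928 to -0.9966 in vehicle and -2.4067 to -2.1168 in propolis. These means include Insm1, at -2.15 to -1.84 in vehicle and -4.77 to -4.45 in propolis, and without it they overlap. The highest mean was that of vehicle 3, the array with intestinal RNA, where Chgb read 0.41 against -4.29 and -3.07 in vehicle 1 and 2. At an unadjusted p under 0.05 there were 2 genes, Chga and Insm1, both lower in every propolis array. Chga, picked after its values were seen, differed by -1.49 without passing (limma adjusted p = 0.33). Insm1, a transcription factor gene of these cells, fell by 2.51 (limma adjusted p = 0.00975). With 1 array left out its difference stayed at -2.57 to -2.41, and the adjusted p was 0.0614 without vehicle 2, 0.0603 without propolis 2 and from 0.0295 to 0.0497 otherwise. The part of these cell types in the Calca and Calcb values was not tested.

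**Figure D5:**
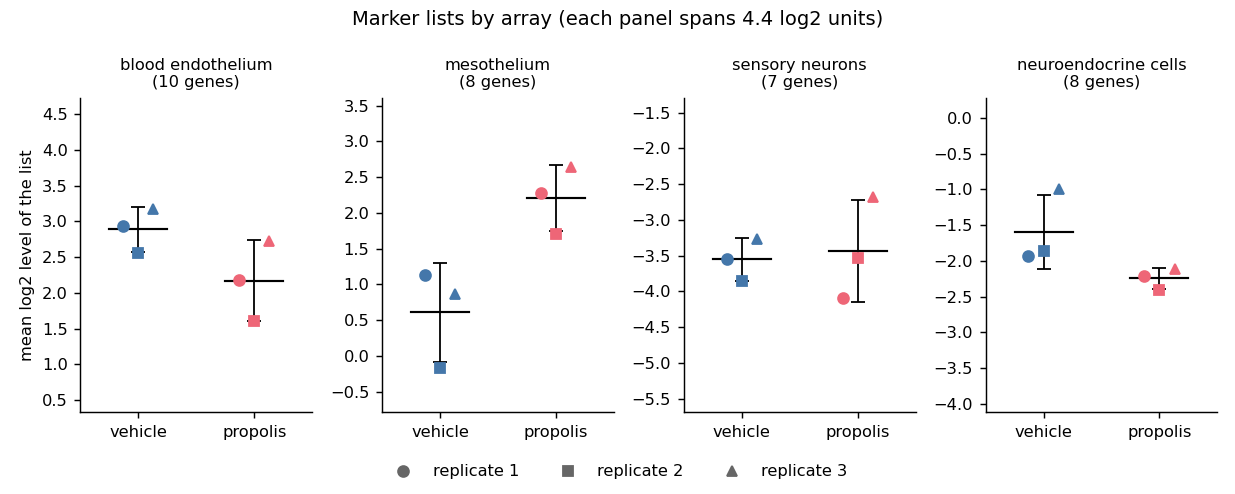
Mean log2 level of the measured genes of 4 marker lists on each array, with a line at the group mean and an SD bar; every panel spans the same height. Mesothelial means do not overlap, at -0.17 to 1.14 in vehicle and 1.71 to 2.64 in propolis, while the endothelial and sensory neuron means of the groups overlap.

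The remaining lists held no called gene in the main fit. Another background correction called 1 adipocyte gene, and weighted arrays 2 adipocyte, 2 B cell and 1 leukocyte gene. Fibroblast and progenitor genes had a median of -0.11, with 2 higher and 5 lower of 7, and leukocyte and macrophage genes -0.29, with 1 higher and 4 lower of 5. All 6 adipocyte genes had lower means, with a median of -1.02, and all 4 B cell genes too, with a median of -2.30. The B cell genes averaged 0.40, 2.45 and -1.64 in vehicle 1, 2 and 3 and -2.41 to -1.39 in propolis, and without vehicle 2 the median was -1.30. On slide 2 the 4 B cell differences were 0.08 to 0.51. The fibroblast median was 0.04 without propolis 1, and the leukocyte median -0.48 without propolis 2. Of the 6 adipocyte genes 2 were higher with weighted arrays and 1 without propolis 1. Without vehicle 2 and vehicle 3 the adipocyte count was 1 higher, with a median of -0.64. At an unadjusted p under 0.05 there were 1 fibroblast, 0 leukocyte, 4 adipocyte and 2 B cell genes. List means did not overlap for adipocyte genes, at 2.33 to 3.11 in vehicle and 1.15 to 2.13 in propolis. Nor did they for leukocyte genes, at 4.78 to 5.08 in vehicle and 4.64 to 4.77 in propolis.

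The genes whose pattern over the 6 arrays was most like that of each peptide gene were found among 15765 named genes by Pearson r. For Calca these were Cnn3, an actin-binding calponin gene, Defb48, Pcdhb21, Bicc1 and Fam229b, with r from 0.9961 to 0.9988. For Calcb they were P3h4, Star, Gas6, Zmat3 and Garem2, with r from 0.9939 to 0.9979. Because the groups lie far apart for Calca and Calcb, such values mostly reflect the step between groups. Star, which encodes the protein that brings cholesterol into mitochondria for steroid synthesis, read -1.58, -2.21 and -2.33 in vehicle and 0.26, 0.40 and 0.47 in propolis. For Calcrl the nearest were the noncoding RNA Neat1, Ppp6r1, Slc9a8, the mast cell tryptase gene Tpsb2 and Chst15, with r from 0.9856 to 0.9931. In all 5 of these, as in Calcrl, propolis 3 lay nearest to the vehicle arrays.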

How the data were processed

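RNA from 3 vehicle and 3 propolis samples was hybridised to 1-colour Agilent mouse arrays, one sample per array. Per the labels' protocols, 0.1 µg of RNA was labelled with Cy3. Per the submitters' processing notes, the arrays were read with Agilent Feature Extraction 10.7.3.1. Per the file headers, the scanner software had already subtracted background from the intensity used here, which is linear. The deposited series table holds log2 values of the same signal, shifted so that the 75th percentile of each array lies near 0. It served as an alternative, with medians of -3.97 to -3.62 per array.

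That signal was turned to log2, without the spots flagged as non-uniform, and averaged over spots of a probe, less the 75th percentile of its array. Probes well above background on 3 or more of 6 arrays were kept (34786 of 55681), less 4 with a missing value. Each gene was represented by its brightest kept probe, by the mean level over all 6 arrays, which left 25777 genes and unnamed transcripts. Symbols came from RefSeq accessions in a GRCm38.p6 table used for names, gene order and promoter sequences, while the array was designed on mm9; 28446 probes found no symbol. No spot was saturated.

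The test was limma 3.58.1 in R 4.3.3, by lmFit and eBayes without a block, and p-values were adjusted over all genes by Benjamini and Hochberg's method, with 0.05 as threshold. The code was tested on simulated data. With 3 arrays a group, an exact permutation p cannot be below 0.1, and the number of arrays limits the precision. The labels call the samples biological replicates but give no number of mice per sample, so the p-values reflect the spread between these samples alone, which may be technical. Every member and all its probes are named, together with the called genes, or the 2 of lowest p, of each pathway list. Also named are the 5 genes most like Calca, Calcb and Calcrl and selected markers of the cell type lists. The plan was up to 3 defining markers a list, but more are named for some lists. Some of these markers were picked after their values were seen. The members and the lists were chosen with earlier results of these data known. The neighbours of Calca and Calcb and the tests of single probes were added after the values were seen. Lists are described by counts and medians, with no test of the list. Some genes that the rule would name are not reported here.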

Additional observations from a re-analysis of the deposited data

How the results depend on the processing

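The 2 called members, Calca and Calcb, stayed 2 under 15 of 21 other settings, among them other background correction, scaling, a series table and the slide as a block. The looser threshold of 0.1, also among the 15, could not lose a call. The count was 1 when probes had to stand well above background on all 6 arrays, which drops Calcb, 4 with arrays weighted by quality, which adds Calcrl and Ramp3, and 0 on slide 1 alone or without vehicle 2 and vehicle 3. Leaving out single arrays gave 1 to 2 calls, and the count was 1 with the other Calca probe, an alternative chosen after seeing the data. The count of other pathway genes was 5 with weighted arrays and otherwise 0, from 0 to 0 with 1 array left out. Adm turned to 0.12 without vehicle 2 and vehicle 3 and to 0.0514 without propolis 2 (0.0074 without vehicle 3), with -0.47 as the lowest value when 1 array was left out. Ramp1 turned to 0.0202 with weighted arrays and to 0.53 by probe A_55_P1982996, and ran from -0.77 to 0.017 with 1 array left out. The cause was not tested.

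The labels number the replicates 1 to 3 in both groups. Deviations from the group means correlated at 0.036, 0.291 and 0.135 between samples of the same number, so the numbers were not taken as pairs. With the replicate block, 2 members and 0 other pathway genes were called, and 73 of all genes.

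Over all genes 215 were called, 106 with no filter on dim probes, 526 at an adjusted p under 0.1, 3231 with weighted arrays, 11 to 94 with 1 array left out, and 0 on slide 1 alone (5856 at an unadjusted p under 0.05) or without vehicle 2 and vehicle 3 (1362). Probes near background, such as those of Calca and Calcb in vehicle and of Calcrl, have the least certain differences.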
